A study of Homo sapiens with 12 samples.

Results

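The genes described here are 39 genes of the actin cytoskeleton and of the WAVE complex, out of 61209 gene names in the count table. They were chosen by name, as actin-binding proteins and RAC1-WAVE genes tied to disulfide stress when cells lack glucose. All 39 were found in the table, and 38 of them were among the 18526 genes tested. The exception was FLNC, the muscle form of filamin, which had 0 to 12 counts per library. The RNA came from A375, a human melanoma cell line, with 3 libraries in each of 4 groups: OGDH-depleted cells starved of glucose for 5 h, OGDH-depleted cells with glucose, control cells starved of glucose for 5 h, and control cells with glucose. The titles call the depleted cells KO and the series text calls them knockdown; the agent, the number of clones and the treatment of the control cells are not stated in the labels. Nor do they name separate cultures for the 3 libraries of a group, so p-values measure the spread between these libraries, which may be technical.

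Actin filaments give a cell its shape and pull on its adhesions. RAC1, a small GTPase, binds the WAVE complex (WASF2, NCKAP1, CYFIP1, ABI1 and BRK1), which switches on Arp2/3 so that branched filaments grow. RHOA and its relatives drive formins and myosin II, which build and tighten stress fibres bundled by alpha-actinin and anchored through talin, vinculin and zyxin. In cells that import much cystine through SLC7A11, loss of glucose is known to deplete NADPH, and disulfide bonds then form between actin-cytoskeleton proteins, with RAC1 and the WAVE complex promoting the process. RNA counts show messenger levels and hold no information on disulfide bonds.

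Libraries held 21556273 to 25546615 counted fragments, of which the 39 genes took 1.71% to 2.44%. Levels are in CPM, counts relative to the TMM-scaled library size, and values of 1 group are listed in the order of replicates 1, 2 and 3. OGDH, the depleted gene, lay at 32.3 to 45.1 CPM in the 6 depleted libraries and at 129 to 166 CPM in the 6 control libraries. SOX10, a melanoma lineage factor, was present in all 12 libraries at 299 to 670 CPM, whereas the pigment genes PMEL and MLANA stayed at or below 1.56 CPM and TYR was at or near 0. Libraries of a group differed in how their counts depended on the GC content of a gene. This tilt, the slope of a library's log2 deviation from the mean of all libraries per 10 percentage points of GC, was 0.084, -0.073 and -0.33 in starved depleted cells and 0.18, 0.17 and 0.17 in depleted cells with glucose. It was -0.20, -0.25 and 0.18 in starved control cells and 0.21, -0.29 and 0.15 in control cells with glucose. A negative slope means that genes rich in G and C were counted less.

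Starvation of control cells asked how these genes respond to glucose loss where OGDH is intact. Of the 38 tested members 9 rose and 2 fell past an adjusted p of 0.05 in edgeR's quasi-likelihood test. The genes that rose were RHOB, ACTG1, ZYX, IQGAP1, MYL12A, PDLIM1, WASF2, TPM1 and ACTN1, and those that fell were MYH10 and DIAPH1. They include cytoplasmic gamma-actin, an actin crosslinker, proteins of adhesion plaques, a myosin light chain and 1 of the 5 WAVE subunits. Over all 18526 tested genes 17% were called higher and 17.5% lower in this comparison, against 9 and 2 of 38 here. The median log2 fold change of the members was 0.19, beside -0.02 for all tested genes. The counts moved with the libraries kept: when replicate 3 of both starved groups and replicate 2 of the control cells with glucose were left out, the 3 libraries farthest from their groups, 19 members were called higher and 10 lower, while the calls over all genes went to 11364 of 18776, against 6400 of 18526 with every library. In that smaller set both starved control libraries had a negative GC slope and both control libraries with glucose a positive one, so the tilt and starvation cannot be told apart there. In bulk RNA, a change in every cell and a change in which cells make up the culture cannot be told apart either.

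**Figure D1:**
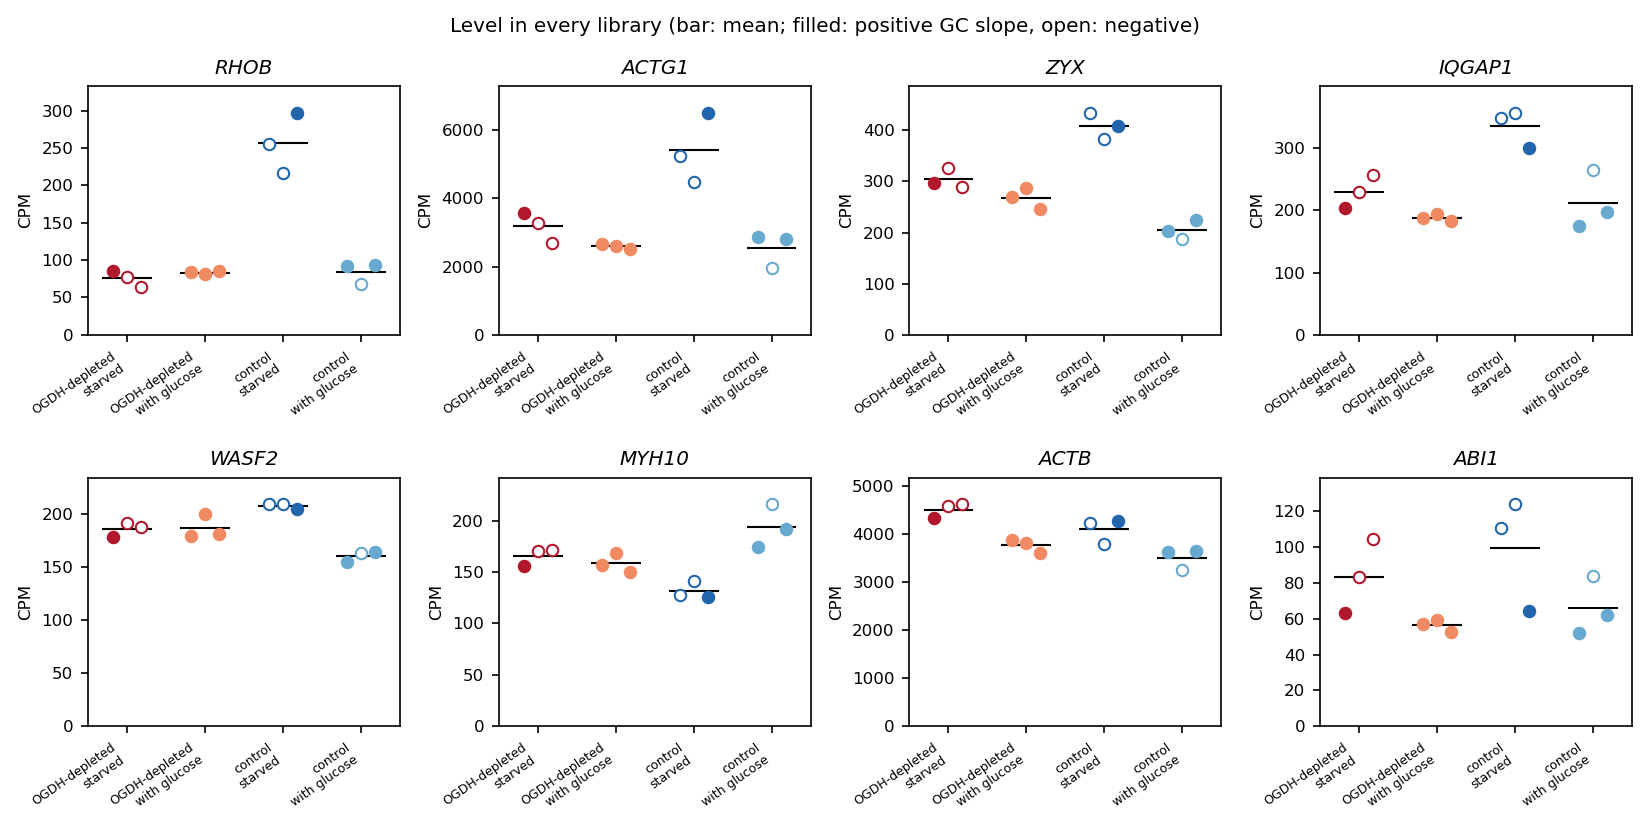
Level in CPM (linear axis from 0) of 8 members in each of the 12 libraries, by group; a black bar is the mean of 3 libraries, filled points are libraries with a positive GC slope and open points those with a negative one. RHOB, ACTG1 and ZYX stand clear of every other library in the 3 starved control libraries, MYH10 lies lowest there, and ABI1 is higher in open than in filled points of the same group.

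RHOB, a short-lived small GTPase of endosomes and membranes encoded by a single exon (hg38 chromosome 2, 20447074 to 20449440), moved most among the members. It had 255, 216 and 297 CPM in starved control libraries, against 91.8, 68.05 and 93.2 CPM in control libraries with glucose. The lowest starved library was thus above the highest one with glucose, by far more than the spread in either group. The log2 fold change was 1.60 (SE 0.16, adjusted p = 1.4e-05). ACTG1, which encodes gamma-actin (chromosome 17, 81509413 to 81523847), had 5223, 4477 and 6502 CPM in starved control libraries and 2866, 1943 and 2809 CPM in control libraries with glucose. Its groups did not overlap, and the log2 fold change was 1.09 (SE 0.18, adjusted p = 0.00073). ZYX, zyxin, a LIM protein of focal adhesions and stress fibres (chromosome 7, 143381295 to 143391111), had 434, 383 and 407 CPM in starved control libraries and 203, 187 and 225 CPM in control libraries with glucose (0.99, SE 0.10, adjusted p = 2.4e-05). Its replicates were tight in both groups.

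Promoter sequences are shown for the 3 members that rose most, for MYH10, which fell most, and for FLNA, which shares a motif with ACTG1. They come from RefSeq on GRCh38.p14, 250 bases before to 50 after a gene start, written 5′ to 3′ along the gene. Capitals mark the CArG box (CC, 6 bases that are each A or T, then GG), to which serum response factor is known to bind, and CCAAT on either strand. The windows are chr17:81512750-81513049 (minus strand), chrX:154374585-154374884 (minus strand), chr2:20446824-20447123 (plus strand), chr7:143381095-143381394 (plus strand) and chr17:8630676-8630975 (minus strand).
ACTG1: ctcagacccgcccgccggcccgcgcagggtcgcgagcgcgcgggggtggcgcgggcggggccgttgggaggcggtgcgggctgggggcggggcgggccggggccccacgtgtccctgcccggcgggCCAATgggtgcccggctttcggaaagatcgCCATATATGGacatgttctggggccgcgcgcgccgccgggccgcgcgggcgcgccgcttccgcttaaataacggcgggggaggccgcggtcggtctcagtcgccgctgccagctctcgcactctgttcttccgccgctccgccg
FLNA: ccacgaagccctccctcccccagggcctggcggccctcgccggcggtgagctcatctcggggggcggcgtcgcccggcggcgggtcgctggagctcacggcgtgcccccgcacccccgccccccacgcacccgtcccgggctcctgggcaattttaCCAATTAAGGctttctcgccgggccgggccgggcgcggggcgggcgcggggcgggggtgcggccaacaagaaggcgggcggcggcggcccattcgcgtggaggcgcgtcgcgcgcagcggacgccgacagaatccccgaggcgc
RHOB: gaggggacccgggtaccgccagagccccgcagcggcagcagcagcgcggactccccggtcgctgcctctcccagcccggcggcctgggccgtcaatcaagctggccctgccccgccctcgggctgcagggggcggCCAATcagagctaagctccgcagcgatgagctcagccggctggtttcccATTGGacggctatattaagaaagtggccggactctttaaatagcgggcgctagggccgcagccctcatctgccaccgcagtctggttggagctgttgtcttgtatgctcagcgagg
ZYX: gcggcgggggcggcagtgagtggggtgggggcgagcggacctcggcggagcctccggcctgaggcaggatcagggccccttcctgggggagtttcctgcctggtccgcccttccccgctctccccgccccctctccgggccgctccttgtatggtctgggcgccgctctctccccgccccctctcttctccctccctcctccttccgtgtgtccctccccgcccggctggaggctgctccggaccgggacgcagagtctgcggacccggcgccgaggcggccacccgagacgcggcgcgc
MYH10: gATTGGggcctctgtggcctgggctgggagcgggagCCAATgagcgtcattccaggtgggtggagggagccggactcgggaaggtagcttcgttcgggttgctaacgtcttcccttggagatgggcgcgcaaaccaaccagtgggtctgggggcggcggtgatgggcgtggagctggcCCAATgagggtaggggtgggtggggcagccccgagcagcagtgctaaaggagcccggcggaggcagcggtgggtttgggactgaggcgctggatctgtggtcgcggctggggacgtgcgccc
The table of promoters held 54 windows for 35 of the 39 members; ACTB, WASF2, RAC1 and MYL9 had none and were not analysed here. A CArG box lay in 4 of the 54 windows (7.41%), 1 each of ACTG1, ACTN1, FLNA and TPM4, against 454 of 35116 windows of the same length (1.29%). In ACTG1 it began 94 bases before the start and its CCAAT 124 bases before. In FLNA the CCAAT is the first part of the CArG box itself, so the 2 matches overlap. CCAAT was found in 19 of 54 windows (35.2%), against 34.6% of all windows. TGACG, on either strand, lay in 15 of 54 (27.8%) and 24.6% of all, and TATAAA in 2 of 54 (3.70%) and 11.5%. RHOB held CCAAT 115 and 66 bases before its start, MYH10 held it 3 times, and ZYX, which rose beside ACTG1, held neither of the marked motifs.

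Of the 2 cytoplasmic actins, ACTG1 passed the test and ACTB did not. ACTB, beta-actin, had 4214, 3780 and 4275 CPM in starved control libraries and 3622, 3239 and 3649 CPM in control libraries with glucose. The groups did not overlap, but the log2 fold change of 0.22 (SE 0.10, adjusted p = 0.11) did not pass. In 4 of 26 alternative settings ACTB was called higher. ACTG1 made up 55.4%, 54.2% and 60.3% of the counts of the pair in starved control libraries, against 44.2%, 37.5% and 43.5% in control libraries with glucose. In OGDH-depleted cells the share was 45.2%, 41.7% and 36.9% when starved and 40.7%, 40.5% and 41.1% with glucose. The starved control libraries were thus the only group in which ACTG1 had more counts than ACTB, and it was also the higher per exon length there: 1333 ± 253 CPM per kb for ACTG1 and 928 ± 61.3 for ACTB (SD, n = 3). In the other 3 groups ACTB was the higher of the pair per kb; the share itself was not tested. The 2 proteins are nearly identical, the coding sequences are similar, and both genes have many processed pseudogenes. Fragments that mapped to several places were not counted, so the share and both levels are uncertain.

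Among crosslinkers, ACTN1, an alpha-actinin of stress fibres, rose slightly (0.33, SE 0.11, adjusted p = 0.030), with 692, 647 and 704 CPM in starved control libraries and 555, 478 and 591 CPM in control libraries with glucose. That call was lost in 9 of 26 alternative settings. ACTN4, its close relative, stayed at 0.00 (SE 0.10, adjusted p = 0.98). FLNA, filamin A, which links filaments at wide angles, had 2050, 1987 and 3597 CPM in starved control libraries and 2490, 1350 and 2362 CPM in control libraries with glucose. Its groups overlapped, and 0.30 (SE 0.28, adjusted p = 0.43) did not pass. Set against libraries of the same GC sign, the log2 ratio was 0.58 (2 starved against 1 with glucose, negative slopes) and 0.57 (1 against 2, positive slopes). It passed in the 4 settings that adjust for GC by an offset, a slope or its sign, and without the 3 outlying libraries it was -0.27 (adjusted p = 0.030), so its direction depended on the setting.

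At adhesion plaques, PDLIM1, a PDZ-LIM protein that binds alpha-actinin, had 49.5, 53.8 and 50.4 CPM in starved control libraries and 32.1, 35.9 and 34.8 CPM in control libraries with glucose (0.58, SE 0.10, adjusted p = 0.00086). Both groups were tight. VCL, vinculin, stood at 0.18 (SE 0.09, adjusted p = 0.12), TLN1, talin, at -0.07 (SE 0.16, adjusted p = 0.77), and PDLIM7, another PDZ-LIM protein, at 0.08 (SE 0.20, adjusted p = 0.77). Of the 5 plaque members 2 therefore rose, ZYX and PDLIM1, and the core linkers talin and vinculin did not pass.

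Myosin II members went both ways. MYH10, the heavy chain of nonmuscle myosin IIB (chromosome 17, 8474207 to 8631376), had 127, 142 and 126 CPM in starved control libraries, against 175, 216 and 192 CPM in control libraries with glucose. It fell by 0.56 on the log2 scale (SE 0.10, adjusted p = 0.0013), with no overlap. MYL12A, a regulatory light chain, had 169, 163 and 144 CPM in starved control libraries and 101, 118 and 100.04 CPM in control libraries with glucose (0.58, SE 0.10, adjusted p = 0.0012). MYL12B, its near-identical neighbour, stood at 0.34 (SE 0.15, adjusted p = 0.099); fragments shared by the 2 were not counted. MYH9, the heavy chain of nonmuscle myosin IIA, stood at 0.25 (SE 0.10, adjusted p = 0.071). Neither MYL6, the essential light chain, at -0.26 (SE 0.39) nor MYL9, at 1.47 to 2.69 CPM in all libraries, passed. The heavy chain that fell and the light chain that rose both kept their calls in all 26 alternative settings.

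Of the tropomyosins, which coat filaments, TPM1 rose (0.34, SE 0.11, adjusted p = 0.040), with 183, 169 and 149 CPM in starved control libraries and 121, 149 and 127 CPM in control libraries with glucose. The margin between the groups was very narrow, and 12 of 26 alternative settings lost the call. TPM2 stood at -0.19, TPM3 at 0.02 and TPM4 at 0.37, with adjusted p-values of 0.31, 0.90 and 0.32. TPM4 had 678, 714 and 397 CPM in starved control libraries and 338, 642 and 400.3 CPM in control libraries with glucose; the high libraries in both groups were those with a negative GC slope. The 5 members that cap, sever or feed filament ends (CAPZA1, CAPZB, CFL1, PFN1 and DSTN) lay between -0.12 and 0.19. None passed, and 0 had an unadjusted p under 0.05, beside 8151 of all 18526 tested genes.

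IQGAP1, a scaffold that binds RAC1, CDC42 and actin, had 348, 356 and 299 CPM in starved control libraries and 175, 264 and 197 CPM in control libraries with glucose (0.66, SE 0.15, adjusted p = 0.0052). The formin DIAPH1, an effector of RHOA that builds unbranched filaments, had 258, 266 and 249.5 CPM in starved control libraries and 301, 332 and 307 CPM in control libraries with glucose. It fell by 0.28 on the log2 scale (SE 0.08, adjusted p = 0.017), and 3 of 26 settings lost the call. INF2, the other formin, stood at -0.20 (SE 0.21, adjusted p = 0.50).

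Within the WAVE complex only WASF2, the subunit that contacts Arp2/3, passed. It had 209, 209 and 205 CPM in starved control libraries and 155, 163 and 164 CPM in control libraries with glucose (0.37, SE 0.08, adjusted p = 0.0037), a small shift with little spread. NCKAP1, the scaffold subunit, had 211, 205 and 154 CPM in starved control libraries and 129, 195 and 137 CPM in control libraries with glucose. ABI1, the adaptor subunit, had 110, 124 and 64.0 CPM in starved control libraries and 52.0, 83.9 and 62.2 CPM in control libraries with glucose. In both genes the groups overlapped and the libraries with a negative GC slope were the high ones; the log2 fold changes were 0.31 (SE 0.18, adjusted p = 0.22) for NCKAP1 and 0.59 (SE 0.25, adjusted p = 0.095) for ABI1. Between libraries of like GC sign ABI1 differed by 0.48 (negative) and 0.16 (positive). CYFIP1, the subunit that binds RAC1, had 57.7, 49.98 and 62.4 CPM in starved control libraries and 60.0, 46.6 and 54.4 CPM in control libraries with glucose. BRK1, the smallest subunit, had 55.3, 61.2 and 75.9 CPM in starved control libraries and 80.1, 69.6 and 80.4 CPM in control libraries with glucose. Neither passed, at 0.08 (SE 0.13) and -0.26 (SE 0.13).

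Of the GTPases, RAC1 had 256, 230 and 170 CPM in starved control libraries and 143, 222 and 157 CPM in control libraries with glucose, and RHOA had 274, 296 and 213 CPM in starved control libraries and 183, 282 and 200.4 CPM in control libraries with glucose. Both overlapped between the groups, with log2 fold changes of 0.33 (SE 0.20, adjusted p = 0.24) and 0.23 (SE 0.18, adjusted p = 0.33). RHOB was thus the GTPase of this set that passed. The Arp2/3 subunits ARPC2 and ARPC5 stood at 0.18 and 0.13, with adjusted p-values of 0.55 and 0.21.

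The tilt by GC content moved with several of these values, so libraries were also compared within each sign of the slope, 2 starved against 1 with glucose on the negative side and 1 against 2 on the positive side. RHOB differed by a log2 ratio of 1.79 and 1.68, ACTG1 by 1.32 and 1.20, ZYX by 1.13 and 0.93, WASF2 by 0.36 and 0.36, and MYH10 by -0.68 and -0.54. Over all libraries the log2 fold changes of these members were 1.60, 1.09, 0.99, 0.37 and -0.56. Of the 38 members 26 lay above 0 on both sides, 3 below 0 on both and 9 had unlike signs. Such signs were not counted over all tested genes. The median ratio of the members was 0.16 on the negative and 0.14 on the positive side. For all tested genes it was -0.01 and -0.03. With the sign of the slope as a term in the model, chosen after seeing the data, 16 members were called higher and 2 lower, and 9454 of all 18526 tested genes were called.

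**Figure D2:**
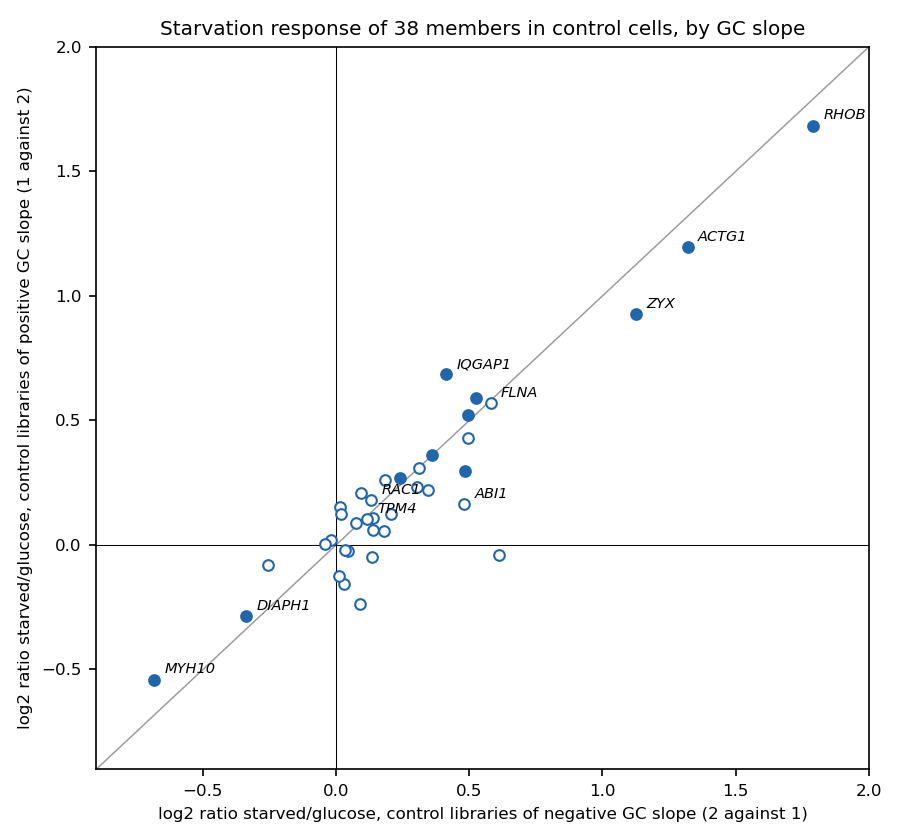
Log2 ratio of starved over glucose control libraries for the 38 tested members, from libraries with a negative GC slope (x axis, 2 against 1) and with a positive one (y axis, 1 against 2); filled points passed the edgeR test over all libraries and the diagonal marks equal ratios. RHOB, ACTG1, ZYX and MYH10 lie near the diagonal, at 1.79 and 1.68, 1.32 and 1.20, 1.13 and 0.93, and -0.68 and -0.54.

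In OGDH-depleted cells no member passed the test for starvation, RHOB, ACTG1 and ZYX included. None of the 38 tested members was called in either direction by edgeR, beside 2.42% of all tested genes called higher and 4.76% lower. An unadjusted p under 0.05 in edgeR was found for 7 members, beside 4382 of all 18526 tested genes. DESeq2 called 4 members, and 2031 genes in all. The median log2 fold change was 0.14, beside 0.02 for all tested genes. RHOB had 84.9, 77.7 and 64.5 CPM in starved depleted libraries and 83.7, 81.7 and 84.9 CPM in depleted libraries with glucose (-0.14, SE 0.15, adjusted p = 0.58). ZYX had 297, 326 and 288 CPM in starved depleted libraries and 269, 286 and 247 CPM in depleted libraries with glucose (0.18, SE 0.10, adjusted p = 0.29). For MYH10 the values were 156, 170 and 172 CPM in starved depleted libraries and 157, 169 and 149.7 CPM in depleted libraries with glucose (0.07, SE 0.10, adjusted p = 0.71). The groups overlapped for RHOB and MYH10. For ZYX they did not, by a narrow margin: the lowest starved library had 288 CPM and the highest with glucose 286 CPM.

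ACTG1 had 3566, 3276 and 2695 CPM in starved depleted libraries and 2667, 2586 and 2516 CPM in depleted libraries with glucose. The groups did not overlap, but 0.30 (SE 0.18, adjusted p = 0.33) did not pass; 6 of 26 alternative settings called it. ACTB had 4321, 4574 and 4615 CPM in starved depleted libraries and 3878, 3799 and 3599 CPM in depleted libraries with glucose. Its groups did not overlap either, but 0.26 (SE 0.10, adjusted p = 0.14) did not pass. Among the WAVE subunits, WASF2 had 178, 191 and 188 CPM in starved depleted libraries and 179.5, 199.7 and 181 CPM in depleted libraries with glucose, for a log2 fold change of -0.01 (SE 0.08). ABI1 had 63.1, 83.2 and 104 CPM in starved depleted libraries and 56.9, 59.2 and 52.6 CPM in depleted libraries with glucose, the highest being the starved library of the most negative GC slope (0.57, SE 0.25, adjusted p = 0.20). NCKAP1 had 146, 152 and 201 CPM in starved depleted libraries and 142, 136 and 143 CPM in depleted libraries with glucose (0.24, SE 0.18). CYFIP1, at 65.2, 60.3 and 50.8 CPM in starved depleted libraries and 67.7, 63.3 and 60.4 CPM in depleted libraries with glucose, and BRK1, at 85.0, 82.4 and 65.6 CPM in starved depleted libraries and 78.6, 74.8 and 77.5 CPM in depleted libraries with glucose, gave -0.12 and 0.01.

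RAC1 had 199, 216 and 303 CPM in starved depleted libraries and 183, 182 and 190 CPM in depleted libraries with glucose, and RHOA had 219, 248 and 299 CPM in starved depleted libraries and 193, 185 and 190 CPM in depleted libraries with glucose. Every starved library of these 2 genes was above every one with glucose, yet neither passed (0.37, SE 0.20, adjusted p = 0.29, and 0.43, SE 0.18, adjusted p = 0.17). The 3 depleted libraries with glucose all had a positive GC slope while 2 of the 3 starved ones had a negative one, and the part of this in the results was not tested. FLNA, rich in G and C at 62.0%, went the other way (-0.40, SE 0.28, adjusted p = 0.38). It had 2528, 2053 and 1541 CPM in starved depleted libraries and 2649, 2705 and 2751 CPM in depleted libraries with glucose. The 1 starved depleted library of positive GC slope was also set against the 3 with glucose. Its log2 ratio was 0.10 for RAC1, 0.21 for RHOA and -0.10 for FLNA. For ABI1 it was 0.16 and for ACTG1 0.46.

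The difference between the 2 starvation responses, the interaction, tests whether OGDH status changes the response. It was past the threshold for 4 of the 38 members, with the response of depleted cells lower for RHOB, ZYX and WASF2 and higher for MYH10. Over all tested genes 8.30% were called higher and 8.95% lower. For RHOB the depleted minus control response was -1.74 (SE 0.22, adjusted p = 0.00026) and for ZYX -0.81 (SE 0.14, adjusted p = 0.0027). For MYH10 it was 0.63 (SE 0.14, adjusted p = 0.011), and RHOB and MYH10 kept their calls in all 25 alternative settings. The ZYX call was lost in 2 of them, those with a GC offset (adjusted p up to 0.090). WASF2 stood at -0.38 (SE 0.11, adjusted p = 0.038) and lost its call in 15 of the 25. ACTG1 just missed (-0.79, SE 0.25, adjusted p = 0.052), and 10 settings called it. The members' median was -0.05, beside 0.01 for all tested genes. ACTB did not pass, at 0.04 (SE 0.14, adjusted p = 0.90), from responses of 0.26 in depleted and 0.22 in control cells.

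OGDH depletion with glucose present called none of the 38 members by edgeR, beside 1.59% of all tested genes higher and 1.45% lower. In edgeR 7 members had an unadjusted p under 0.05, beside 2967 of all 18526 tested genes. DESeq2 called 2 members, and 1172 genes in all. The member nearest to the threshold was ZYX, with 269, 286 and 247 CPM in depleted libraries and 203, 187 and 225 CPM in control libraries (0.38, SE 0.10, adjusted p = 0.076); the groups did not overlap. The RHOB groups overlapped, at 83.7, 81.7 and 84.9 CPM in depleted libraries and 91.8, 68.05 and 93.2 CPM in control libraries (-0.02, SE 0.15, adjusted p = 0.97). ACTG1 stood at 0.03 (SE 0.18, adjusted p = 0.96) and WASF2 at 0.22 (SE 0.08, adjusted p = 0.19). MYH10 was at -0.29 (SE 0.10, adjusted p = 0.17). The members' median was 0.04, beside -0.01 for all tested genes. The control libraries here include replicate 2, whose GC slope and 14.6% share of mitochondrially encoded counts set it apart from the other control libraries with glucose (4.97% and 6.35%). Without the 3 outlying libraries 4 members were called higher and 3 lower, and 2021 of 18776 genes in all, against 563 of 18526 with every library.

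OGDH depletion under starvation called 1 member higher, MYH10, and 5 lower, RHOB, ACTG1, IQGAP1, ZYX and MYL12A, beside 13.7% of all tested genes higher and 15% lower. This comparison shares its starved control libraries with the starvation response of control cells, so the 2 are not independent. RHOB had 84.9, 77.7 and 64.5 CPM in starved depleted libraries and 255, 216 and 297 CPM in starved control libraries, a log2 fold change of -1.76 (SE 0.16, adjusted p = 1.2e-05). The highest depleted library lay far below the lowest control library. ACTG1 fell by 0.76 (SE 0.18, adjusted p = 0.0078), with 3566, 3276 and 2695 CPM in starved depleted libraries and 5223, 4477 and 6502 CPM in starved control libraries. IQGAP1 had 203, 229 and 257 CPM in starved depleted libraries and 348, 356 and 299 CPM in starved control libraries (-0.54, SE 0.15, adjusted p = 0.017).

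ZYX fell by 0.43 on the log2 scale (SE 0.10, adjusted p = 0.0087), with 297, 326 and 288 CPM in starved depleted libraries and 434, 383 and 407 CPM in starved control libraries. MYL12A had 121, 121.5 and 141 CPM in starved depleted libraries and 169, 163 and 144 CPM in starved control libraries (-0.32, SE 0.10, adjusted p = 0.039), and 11 of 26 settings lost that call. MYH10 rose, with 156, 170 and 172 CPM in starved depleted libraries and 127, 142 and 126 CPM in starved control libraries (0.33, SE 0.10, adjusted p = 0.028; lost in 5 settings). Between libraries of like GC sign (2 against 2 on the negative side, 1 against 1 on the positive side) RHOB differed by -1.73 and -1.81, ACTG1 by -0.70 and -0.87, IQGAP1 by -0.54 and -0.56, and ZYX by -0.41 and -0.46. None of the WAVE subunits and neither RAC1 nor RHOA passed, at -0.25 to 0.28. Leaving out starved control replicate 1 reduced the 6 calls to 3, all lower. Over all genes the calls then went to 4238 of 18981, against 5310 of 18526 with every library.

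**Figure D3:**
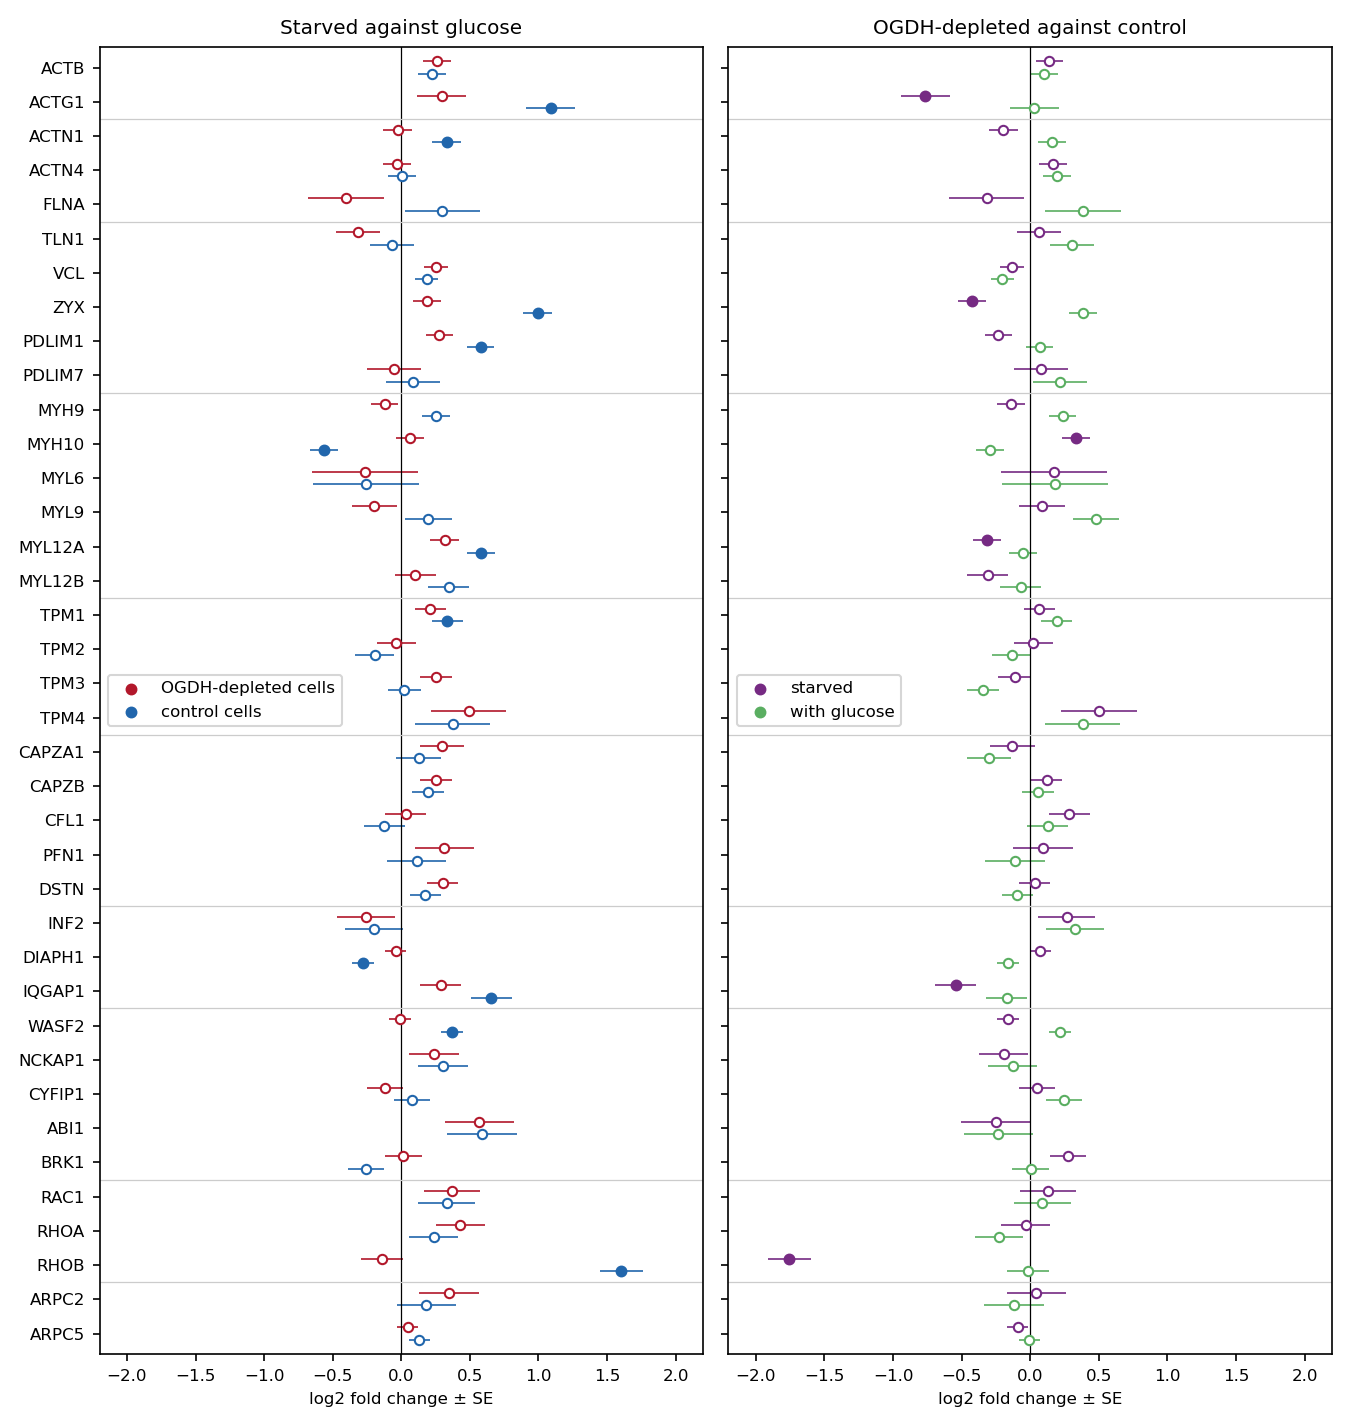
Log2 fold change with SE of the 38 tested members, ordered by role (grey lines part the roles), for starvation in OGDH-depleted and control cells (left) and for OGDH depletion when starved and with glucose (right); filled points passed the edgeR test. RHOB is farthest from 0, at 1.60 for starvation of control cells and -1.76 for depletion under starvation, while no point is filled for starvation of depleted cells or for depletion with glucose.

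Levels per exon length placed the actins and profilin first. In starved depleted cells ACTB had 1022 ± 36.2, ACTG1 785 ± 109 and PFN1 645 ± 156 CPM per kb (SD, n = 3). In control cells with glucose the values were 795 ± 52.0, 627 ± 128 and 560 ± 86.5 CPM per kb. ACTG1 and PFN1 did not differ beyond their spread in either of these groups. RHOB moved most in this order. It stood at 108 CPM per kb in starved control cells, against 31.99, 35.2 and 35.6 CPM per kb in starved depleted cells, depleted cells with glucose and control cells with glucose. The lowest tested member was MYL9, at 0.68 to 0.95 CPM per kb, and WAVE subunits ranged from 5.16 for CYFIP1 to 66.7 for BRK1 in control cells with glucose. The length is that of all annotated exons together, so genes with many annotated transcripts appear lower.

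**Figure D4:**
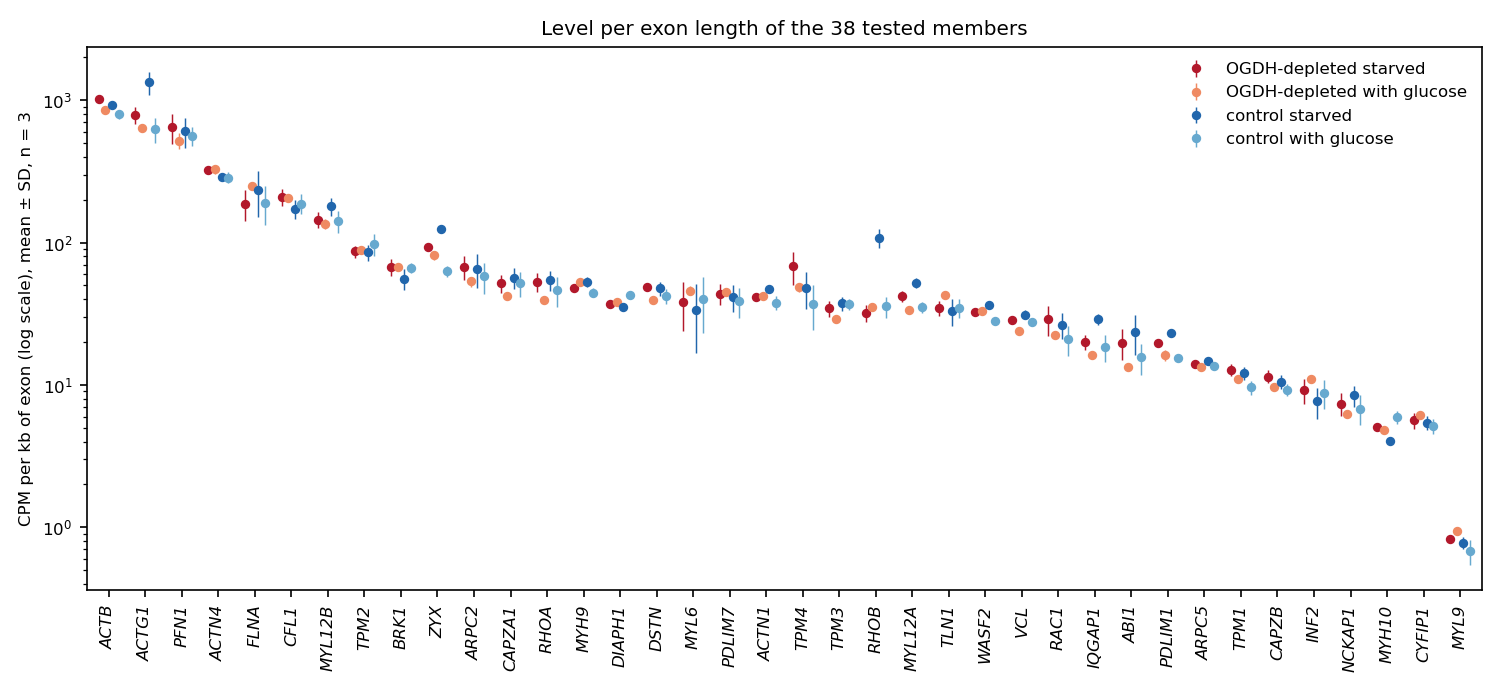
Mean level in CPM per kb of exon (log axis) with SD of 3 libraries for the 38 tested members in the 4 groups, sorted by control cells with glucose; FLNC, which was not tested, is left out. ACTG1 (1333 CPM per kb) and RHOB (108 CPM per kb) stand above the other groups in starved control cells.

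The pathway around these genes was followed in lists chosen by function. Counts called in them stand beside the shares of all tested genes called higher and lower. These were 17% and 17.5% for starvation of control cells, and 2.42% and 4.76% for starvation of depleted cells. They were 1.59% and 1.45% for depletion with glucose, 13.7% and 15% for depletion without glucose, and 8.30% and 8.95% for the interaction. An unadjusted p under 0.05 in edgeR was found for 8151, 4382 and 2967 of all 18526 tested genes. The order is starvation of control cells, starvation of depleted cells and depletion with glucose. Of the 11 other Arp2/3 and WAVE genes, 1 was called for starvation of control cells: CYFIP2, the paralog of CYFIP1, fell by 0.47 (SE 0.09, adjusted p = 0.0025). It had 61.1, 59.8 and 55.2 CPM in starved control libraries and 78.7, 86.2 and 78.8 CPM in control libraries with glucose. CYFIP2 was higher in depleted than in control cells under starvation (0.70, SE 0.09, adjusted p = 0.00023), and in the interaction it stood at 0.74 (SE 0.13, adjusted p = 0.0029). The list's median for starvation of control cells was 0.00, and none was called for starvation of depleted cells (4 at an unadjusted p under 0.05). Neither ACTA1 nor ACTA2, the other actin isoforms that were tested, passed in any comparison. Their 2 log2 fold changes were 0.00 and 1.37 for starvation of control cells, and 0.09 and 1.30 for starvation of depleted cells. In both, and for depletion without glucose, 1 of the 2 had an unadjusted p under 0.05 in edgeR. The 4 isoforms listed summed to only 6.62 to 12.2 CPM over all libraries.

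Regulators of RHOA, RAC1 and related GTPases went both ways. Of 18 regulators 3 rose and 5 fell in starved control cells, beside 17% and 17.5% of all tested genes, with a median of 0.16. RND3, an atypical GTPase that opposes RHOA and ROCK1, had 509, 548 and 318 CPM in starved control libraries and 27.4, 45.1 and 29.97 CPM in control libraries with glucose (3.75, SE 0.26, adjusted p = 9.1e-07). It was also the 1 regulator called for starvation of depleted cells, with 87.4, 97.3 and 127 CPM in starved depleted libraries and 46.5, 45.4 and 42.6 CPM in depleted libraries with glucose (1.21, SE 0.23, adjusted p = 0.0098); the interaction was -2.53 (SE 0.33, adjusted p = 0.00035). ARHGEF2, an exchange factor for RHOA, rose by 1.66 in starved control cells (SE 0.12) and BAIAP2, a membrane-bending partner of RAC1 and WAVE, by 1.14 (SE 0.16). The kinases LIMK1 and LIMK2, which inactivate cofilin, fell by 1.44 (SE 0.21) and 0.68 (SE 0.12), and ARHGDIA, which holds GTPases such as RHOA in the cytosol, fell by 0.71 (SE 0.21). For depletion under starvation 2 regulators were higher, RAC3 (0.76) and SSH1 (0.29), and 3 lower, RND3 (-2.14), ARHGEF2 (-1.50) and BAIAP2 (-1.24). The interaction was higher for MYLK (0.50), myosin light chain kinase, and lower for RND3, ARHGEF2 (-1.94) and BAIAP2 (-1.15). With glucose 0 of the 18 were called (4 at an unadjusted p under 0.05 in edgeR).

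Of 29 further actin-binding proteins 7 rose and 4 fell in starved control cells (median 0.16), beside 17% and 17.5% of all tested genes. In starved depleted cells edgeR called 0 of them (4 had an unadjusted p under 0.05), beside 2.42% and 4.76% of all, and the interaction was higher for 2 and lower for 5. EZR, ezrin, which ties filaments to the membrane, rose by 1.36 (SE 0.10) and CNN1, a calponin at 0.31 to 1.43 CPM, by 1.08 (SE 0.32). FSCN1, a bundler, fell by 0.81 (SE 0.22), PFN2, a profilin, by 0.64 (SE 0.11) and EVL, an Ena/VASP protein, by 0.60 (SE 0.12). The interaction was -1.40 for EZR (SE 0.14) and -0.80 for SPTAN1 (SE 0.18), a spectrin, and it was 0.74 for PFN2 (SE 0.15) and 0.39 for SPTBN1 (SE 0.12), another spectrin. With glucose, depletion raised EZR (0.47, SE 0.10) and lowered CNN3 (-0.37, SE 0.08). Under starvation 4 were higher, led by GSN (0.72), PFN2 (0.59) and EVL (0.46), and 6 lower, among them CNN1 (-1.18) and CNN3 (-0.96).

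Integrins and focal adhesion genes had 5 of 16 members higher and 0 lower in starved control cells by edgeR (9 at an unadjusted p under 0.05), beside 17% and 17.5% of all tested genes, with a median of 0.32. TES, testin, a zyxin partner, rose by 1.66 (SE 0.08), and LIMS1 (0.96, SE 0.25) and FERMT2 (0.93, SE 0.24), which act at the same sites, also rose. None passed for starvation of depleted cells (4 at an unadjusted p under 0.05), and the interaction was negative for TES (-1.51, SE 0.11) and PXN (-0.52, SE 0.14). For depletion under starvation ITGB3 was higher (0.80), and 4 were lower, led by TES (-1.69), ITGA5 (-0.45) and PXN (-0.35). PTK2, focal adhesion kinase, was lower in depleted cells with glucose (-0.62, SE 0.08, adjusted p = 0.0023).

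Serum response factor (SRF), whose cofactors MRTFA and MRTFB are released when actin monomers become scarce, is a textbook regulator of actin genes. Of 15 genes listed as SRF, its cofactors and its targets, 4 of them also among the 39 members, 9 rose and 1 fell in starved control cells, beside 17% and 17.5% of all tested genes. In starved depleted cells 7 rose and 0 fell (10 at an unadjusted p under 0.05 in edgeR), beside 2.42% and 4.76% of all. FOS rose in both. It had 251, 254 and 229 CPM in starved depleted libraries, against 10.8, 12.4 and 11.4 CPM in depleted libraries with glucose, and 370, 389 and 447 CPM in starved control libraries, against 13.2, 11.9 and 15.6 CPM in control libraries with glucose. FOSB rose by 2.72 in starved depleted and 4.21 in starved control cells, and EGR1 by 3.997 in starved depleted and 3.07 in starved control cells. MRTFB fell by 1.46 in starved control cells (SE 0.33, adjusted p = 0.0055), with an interaction of 1.74 (SE 0.46), and SRF itself stood at -0.15 in starved depleted and 0.00 in starved control cells. FOS, FOSB and EGR1 thus rose in starved depleted cells, where RHOB, ZYX and ACTG1 did not pass. Whether SRF acted on any of these genes was not tested. The interaction was lower for FOSB (-1.48), FHL2 (-0.91) and CCN2 (-0.85). Depletion with glucose raised CCN1 (1.24), FHL2 (0.87), CCN2 (0.81) and SRF (0.58), and under starvation CCN1 (1.48), MRTFB (1.29) and SRF (0.42) were higher and FOSB (-1.37), FOS (-0.72) and EGR2 (-0.64) lower.

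Among 11 regulators of disulfide stress 5 rose and 4 fell in starved control cells (median 0.05), beside 17% and 17.5% of all tested genes. None was called by edgeR in starved depleted cells (3 at an unadjusted p under 0.05), beside 2.42% and 4.76% of all. SLC7A11, the cystine importer, had 225, 207 and 161 CPM in starved control libraries and 77.0, 109.9 and 78.9 CPM in control libraries with glucose (1.16, SE 0.17, adjusted p = 0.00033). In depleted cells it had 117, 109 and 145 CPM when starved and 136, 122 and 137 CPM with glucose, and the interaction was -1.24 (SE 0.24, adjusted p = 0.0043). TXNRD1, a thioredoxin reductase, rose by 1.68 in starved control cells (SE 0.09) with an interaction of -1.80 (SE 0.13), and SLC3A2, the partner chain of SLC7A11, rose by 0.96 (SE 0.30). OXSM, GYS1 and NUBPL fell by 0.67, 0.66 and 0.63. The interaction was also lower for RPN1 (-0.52) and was higher for GYS1 (0.82) and NUBPL (0.81). With glucose, TXNRD1 was higher in depleted cells (0.60, SE 0.09), and under starvation GYS1 (0.86) and NUBPL (0.74) were higher there and 4 were lower, led by TXNRD1 (-1.20), SLC3A2 (-0.98) and SLC7A11 (-0.67).

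Markers of other cell types lay at low levels, and some moved with the comparisons. The 5 blood markers summed to 1.05 to 1.18 CPM in starved control libraries and 0.25 to 0.63 CPM in control libraries with glucose, and the 3 endothelial markers to 0.45 to 0.88 CPM and 0.52 to 0.67 CPM in the same groups. CD14, the blood marker that was tested, was higher for starvation of control cells (1.43, SE 0.39, adjusted p = 0.014), lower for depletion under starvation (-1.72, SE 0.40, adjusted p = 0.0079) and lower in the interaction (-2.17, SE 0.58, adjusted p = 0.025), while CD3E, PTPRC and HBB were near 0. The 3 muscle markers summed to 7.95 to 12.2 CPM in starved control libraries and 4.08 to 5.45 CPM in control libraries with glucose, nearly all of it MYH1, a myosin heavy chain (1.17, SE 0.20, adjusted p = 0.00082), while DES and CKM, the defining muscle genes, lay near 0. MYH1 was lower for depletion under starvation (-1.37, SE 0.20, adjusted p = 0.00040). Of 7 melanocyte markers 6 were tested. In starved control cells their median was -0.16, and the values ran from -1.28 to 1.33. There 0 were called higher and 2 lower, beside 17% and 17.5% of all tested genes. These 2 were SOX10 (-0.86, SE 0.12, adjusted p = 0.00021) and S100B (-1.28, SE 0.24, adjusted p = 0.0015). Both were higher for depletion under starvation, SOX10 by 0.66 (SE 0.12) and S100B by 1.27 (SE 0.24), and in the interaction, by 0.71 (SE 0.17) and 1.52 (SE 0.32). In the interaction the median of the list was -0.19 and its lowest value -1.42. The part of all these markers in the results for the members was not tested.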

How the data were processed

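The data are 12 RNA libraries of A375 cells in 4 groups, which the sample titles give. The authors deposited raw fragment counts for each gene name, made with featureCounts 2.0.1 over exons, in pairs, without using strand and without fragments that map to several places, per the file headers. The authors deposited the exon length of each gene name beside the counts, a number that is no measurement, per the file headers. The submitters' processing notes list Subread and hg38, without naming an aligner or the kind of library. Fragments shared by similar genes (such as ACTB and ACTG1 or MYL12A and MYL12B) and fragments from overlapping genes are therefore missing from the counts.

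Genes were kept by filterByExpr (minimum count 10, minimum total count 15), which left 18526 with 99.9% of the counts. Levels are CPM scaled by TMM factors. Differences were tested with edgeR 4.0.16 (R 4.3.3), with the quasi-likelihood test in 1 model of 4 group means. P-values were adjusted by Benjamini and Hochberg over all tested genes of a comparison, with a threshold of 0.05, and each SE belongs to a log2 fold change (median over genes 0.22 for starvation of control cells and 0.31 for the interaction). The test was checked on simulated counts drawn with edgeR's own fitted spread. They held no GC tilt and no outlying libraries, so that check does not cover either. GC content came from GENCODE transcripts and covered 81.9% of tested genes and all 39 members. Alternatives were other scalings, DESeq2 1.42.0, limma 3.58.1 with sample weights, other filters, GC adjustments, a replicate block and leaving out libraries; a term for the sign of the GC slope and the comparisons within 1 sign were chosen after seeing the data.

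The 39 members and the lists were chosen with earlier results of these data known. The text names fixed members (ACTB, ACTG1, RHOB, RHOA, RAC1 and the 5 WAVE subunits), the 5 largest called increases and decreases of each comparison, and up to 3 of each per list. Some values that this rule would name are not reported here. Other members are given by their fold change, and library values of PDLIM1, ACTN1, TPM1, TPM4 and FLNA were added after their values were seen. Titles share replicate numbers between groups, but same-numbered libraries did not deviate together, so the numbers were not used as pairs. No library repeated another of its group.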

Additional observations from a re-analysis of the deposited data

Results flagged for a closer look

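The starvation response of 4 of the 38 tested members differed between OGDH-depleted and control cells by the interaction test of edgeR. Of all tested genes 8.30% were called higher and 8.95% lower. The depleted minus control response was -1.74 for RHOB (adjusted p = 0.00026), -0.81 for ZYX (adjusted p = 0.0027), 0.63 for MYH10 (adjusted p = 0.011) and -0.38 for WASF2 (adjusted p = 0.038). The ZYX call was not kept in every alternative setting, and the WASF2 call was lost in most. RHOB and ZYX were higher in all 3 starved control libraries than in every control library with glucose, and MYH10 was lower in all 3. Of the 38 tested members 13 were apart upwards in this way and 2 downwards. Of all 18526 tested genes 3587 and 3853 were. For starvation of depleted cells, where no member passed, 16 members were apart upwards and 4 downwards. Of all 18526 tested genes 3821 and 3535 were apart there.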

How the results depend on the processing

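The direction of the 11 member calls for starvation of control cells was kept in all 26 alternatives. RHOB, ACTG1, ZYX, IQGAP1, MYL12A, PDLIM1 and MYH10 also stayed past the threshold in all 26; WASF2 did not in 1, DIAPH1 in 3, ACTN1 in 9 and TPM1 in 12. The number of members called depended on the setting, and the cause was not tested. For starvation of control cells (11 called) it was 31 with sample weights in limma, 27 with the GC slope as a covariate, 29 without the 3 outlying libraries and 18 with the sign of the GC slope as a term. For starvation of depleted cells (0 called) those settings gave 21, 11, 6 and 4, and DESeq2 gave 4, the GC offset 5 and the block with the GC offset 3. For depletion with glucose (0 called) they gave 12, 16, 7 and 6, and DESeq2 2, the GC offset 1 and the block with the GC offset 1. For depletion without glucose (6 called) they gave 20, 23, 19 and 13, the GC offset 11 and the block with the GC offset 11, and leaving out 1 library gave 3 to 7. For the interaction (4 called) they gave 15, 21, 19 and 12, and DESeq2, the GC offset and the block with the GC offset 7 each. Calls over all tested genes moved with them. In the order of those 4 settings they were 12247, 11083, 11364 and 9454 for starvation of control cells (6400 in the model reported), 9414, 4934, 3313 and 2152 for starvation of depleted cells (1330), 4403, 4354, 2021 and 2189 for depletion with glucose (563), 10877, 10695, 9874 and 9094 for depletion without glucose (5310), and 8931, 8755, 8077 and 6597 for the interaction (3196). DESeq2 called 2031, 1172 and 3772 genes for starvation of depleted cells, depletion with glucose and the interaction. The GC offset called 2046 genes and the block with the GC offset 1846 for starvation of depleted cells. They called 1434 and 1231 for depletion with glucose, 7423 and 7220 for depletion without glucose, and 5037 and 4837 for the interaction. Leaving out 1 library gave 4030 to 6179 genes for depletion without glucose.

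Members that changed sign with a call were not called over all libraries. With sample weights PDLIM7 gave -0.28 for starvation of control cells and RAC1 -0.39 for the interaction. Without the 3 outlying libraries FLNA gave -0.27 and PDLIM7 -0.30 for starvation of control cells, RAC1 gave -0.25 for depletion without glucose, and the interaction was 0.35 for PDLIM7, 1.01 for MYL6, -0.64 for TPM4, -0.27 for CAPZA1, 0.47 for INF2 and -0.54 for RAC1. For starvation of depleted cells PDLIM7 gave 0.32 with the GC offset, 0.32 with the block and the offset and 0.29 with the GC slope, and MYL6 gave 0.41 with the GC slope. With that slope the interaction was 0.37 for MYL6, -0.22 for TPM4 and 0.15 for INF2.

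Same-numbered libraries of different groups correlated between -0.69 and 0.64 in their deviations from group means, over 0.1 in 7 of 18 pairs, and 5 of 12 libraries correlated best with their own number. With the replicate block, 9, 0, 0, 5 and 3 members were called. The order is starvation of control cells, starvation of depleted cells, depletion with glucose, depletion without glucose and the interaction. Of all 18526 tested genes 6032, 1011, 342, 4931 and 2759 were called.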
